A study of Mus musculus with 48 samples.

Results

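The complement genes described here were 9 genes given by name, *C1qa*, *C1qb*, *C1qc*, *C3*, *C4b*, *Cfb*, *Serping1*, *C3ar1* and *C5ar1*, and all 9 were found among the 24973 genes of the expression table. They were measured by bulk RNA sequencing in 48 libraries of cells sorted from the neurovascular unit (NVU), with 6 libraries for each of 4 cell types and 2 hemispheres. The cell types were microglia (MG), astrocytes (AC), pericytes (PC) and endothelial cells (EC). All mice were adult male wild-type C57BL/6 mice whose middle cerebral artery was transiently occluded on 1 side for 1 h, followed by 23 h of reperfusion. The ipsilateral (ischemic) hemisphere was compared with the contralateral hemisphere of the same mice, which is a control from an animal with a stroke and not from a sham-operated one. Each replicate was a pool of 3 to 4 mice, so that values describe pools and not single animals, and mice with a low neurological score were excluded by the study. Microglia were sorted as CD45low/CD11b+ cells and the other types as CD45-negative cells, with high ACSA2 for astrocytes, VECAD for endothelial cells, and NG2 together with PDGFRβ for pericytes. In such bulk samples fewer cells of a type and less RNA per cell cannot be told apart.

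Complement is a cascade of plasma and tissue proteins that tags cells and debris for removal. The classical pathway starts when C1q, built from A, B and C chains, binds a surface and activates proteases that cleave C4 and then C3. Factor B, encoded by *Cfb*, amplifies the cleavage of C3 in the alternative pathway, and the C1 inhibitor, encoded by *Serping1*, blocks the first proteases. Small fragments of C3 and C5 act on the receptors encoded by *C3ar1* and *C5ar1*. In the brain, microglia are the known main source of C1q, and astrocytes are a known source of C3 and C4.

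Values are normalized counts, that is, reads counted on a gene, divided by a size factor of the library and rounded to whole numbers by the authors. The labels conflict for 12 libraries, those of ipsilateral PC and MG, since a sample titled as one of these types has a column named for the other. Columns were followed, and by their names 16 of 16 cell type markers were higher in each library of the type they mark than in any library of another type. A single read was worth an estimated 0.664 to 2.37 normalized counts, depending on the library, so that 3 reads, taken as the floor, were at most 7.12 normalized counts. The libraries held an estimated 4920000 to 17070000 reads on genes. Libraries of EC, PC and AC also held RNA of the 12 microglial markers, at 0.0869 to 20.4% of the microglial mean of the same hemisphere. Oligodendrocyte markers summed to 49062 to 467708 normalized counts in AC, against 1059 to 39095 in the other types, and smooth muscle markers to 140102 to 472420 in PC, against 47 to 6161.

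The 3 C1q genes lie side by side on the minus strand of chromosome 4 within 18675 bases of mouse genome build GRCm38. *C1qb* (ENSMUSG00000036905) is at chr4:136880129-136886187, *C1qc* (ENSMUSG00000036896) at chr4:136889804-136893065 and *C1qa* (ENSMUSG00000036887) at chr4:136895917-136898803. RefSeq promoter windows of build GRCm38.p6, from 250 bases before to 50 bases after the annotated start, were matched for 5 of the 9 genes by symbol, namely *C1qb*, *C1qc*, *C3*, *C3ar1* and *C5ar1*. The windows of *C1qb* and *C1qc*, whose levels moved together across libraries, and of the receptors *C3ar1* and *C5ar1*, which rose together in microglia, are shown 5′ to 3′ on the minus strand, with matches to the motifs searched in capitals.
*C1qb* promoter, chr4:136886151-136886450: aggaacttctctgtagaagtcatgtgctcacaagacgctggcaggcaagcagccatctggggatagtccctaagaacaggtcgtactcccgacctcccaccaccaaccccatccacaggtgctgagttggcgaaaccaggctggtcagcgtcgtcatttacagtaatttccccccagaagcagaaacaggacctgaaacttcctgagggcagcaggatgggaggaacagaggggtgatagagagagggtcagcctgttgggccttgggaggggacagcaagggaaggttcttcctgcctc
*C1qc* promoter, chr4:136892865-136893164: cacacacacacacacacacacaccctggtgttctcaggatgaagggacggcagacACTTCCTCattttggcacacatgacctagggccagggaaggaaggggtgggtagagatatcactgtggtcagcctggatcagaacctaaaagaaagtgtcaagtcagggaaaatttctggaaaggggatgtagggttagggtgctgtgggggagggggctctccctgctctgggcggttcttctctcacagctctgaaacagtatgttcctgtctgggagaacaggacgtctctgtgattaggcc
*C3ar1* promoter, chr6:122856108-122856407: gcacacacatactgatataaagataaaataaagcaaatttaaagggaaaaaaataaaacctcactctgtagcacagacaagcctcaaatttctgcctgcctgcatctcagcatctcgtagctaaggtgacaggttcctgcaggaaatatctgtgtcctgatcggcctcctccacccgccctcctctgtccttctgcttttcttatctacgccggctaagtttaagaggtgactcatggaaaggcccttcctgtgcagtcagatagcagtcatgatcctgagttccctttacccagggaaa
*C5ar1* promoter, chr7:16259289-16259588: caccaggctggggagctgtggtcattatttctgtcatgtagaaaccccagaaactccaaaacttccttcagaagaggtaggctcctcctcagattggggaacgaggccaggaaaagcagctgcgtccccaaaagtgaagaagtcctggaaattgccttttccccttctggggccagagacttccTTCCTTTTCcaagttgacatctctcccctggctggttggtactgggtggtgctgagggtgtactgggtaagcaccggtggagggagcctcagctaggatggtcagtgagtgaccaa

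Both strands of the 5 windows were searched for letters of 4 motifs. The letters GAGGAAGT, the core bound by PU.1, a factor of myeloid cells, stood in reverse 195 bases before the RefSeq start of *C1qc*. Of all 32851 promoter windows, 3.20% hold them. The letters GAAANNGAA, of the interferon-stimulated response element, stood in reverse 66 bases before the RefSeq start of *C5ar1*. Of all windows, 8.56% hold these letters. For *C1qc* and *C5ar1* the RefSeq start lies inside the gene span given in this text. The match of *C5ar1* therefore lies within its gene span, and that of *C1qc* lies before its gene span. The windows of *C1qb*, *C3* and *C3ar1* matched none of the 4 motifs. No window of the 5 held GGGANTTTC, letters of NF-kappa B sites found in 1.11% of all windows, or TTCNNNGAA, letters of the interferon-gamma activated site found in 8.30%. A match or its absence describes only these letters in this window.

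The C1q chains were by far highest in microglia. In contralateral MG, *C1qa* ranged from 49499 to 61579 normalized counts with a median of 54675, *C1qb* from 154173 to 191007 with a median of 165794, and *C1qc* from 98692 to 121725 with a median of 113547.5. Per kilobase of exon, the unit in which genes can be compared, the contralateral microglial median was 152384 for *C1qb*, 58802 for *C1qc* and 52572 for *C1qa*. The same chains had contralateral medians of 1395, 3340 and 2745 normalized counts in EC, in the order *C1qa*, *C1qb*, *C1qc*, of 252, 571 and 567.5 in PC, and of 555.5, 1988 and 1033.5 in AC. No library of these 3 types reached the lowest microglial library for any chain. The levels of the 9 genes in all 48 libraries show this separation in the first row of panels.

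**Figure D1:**
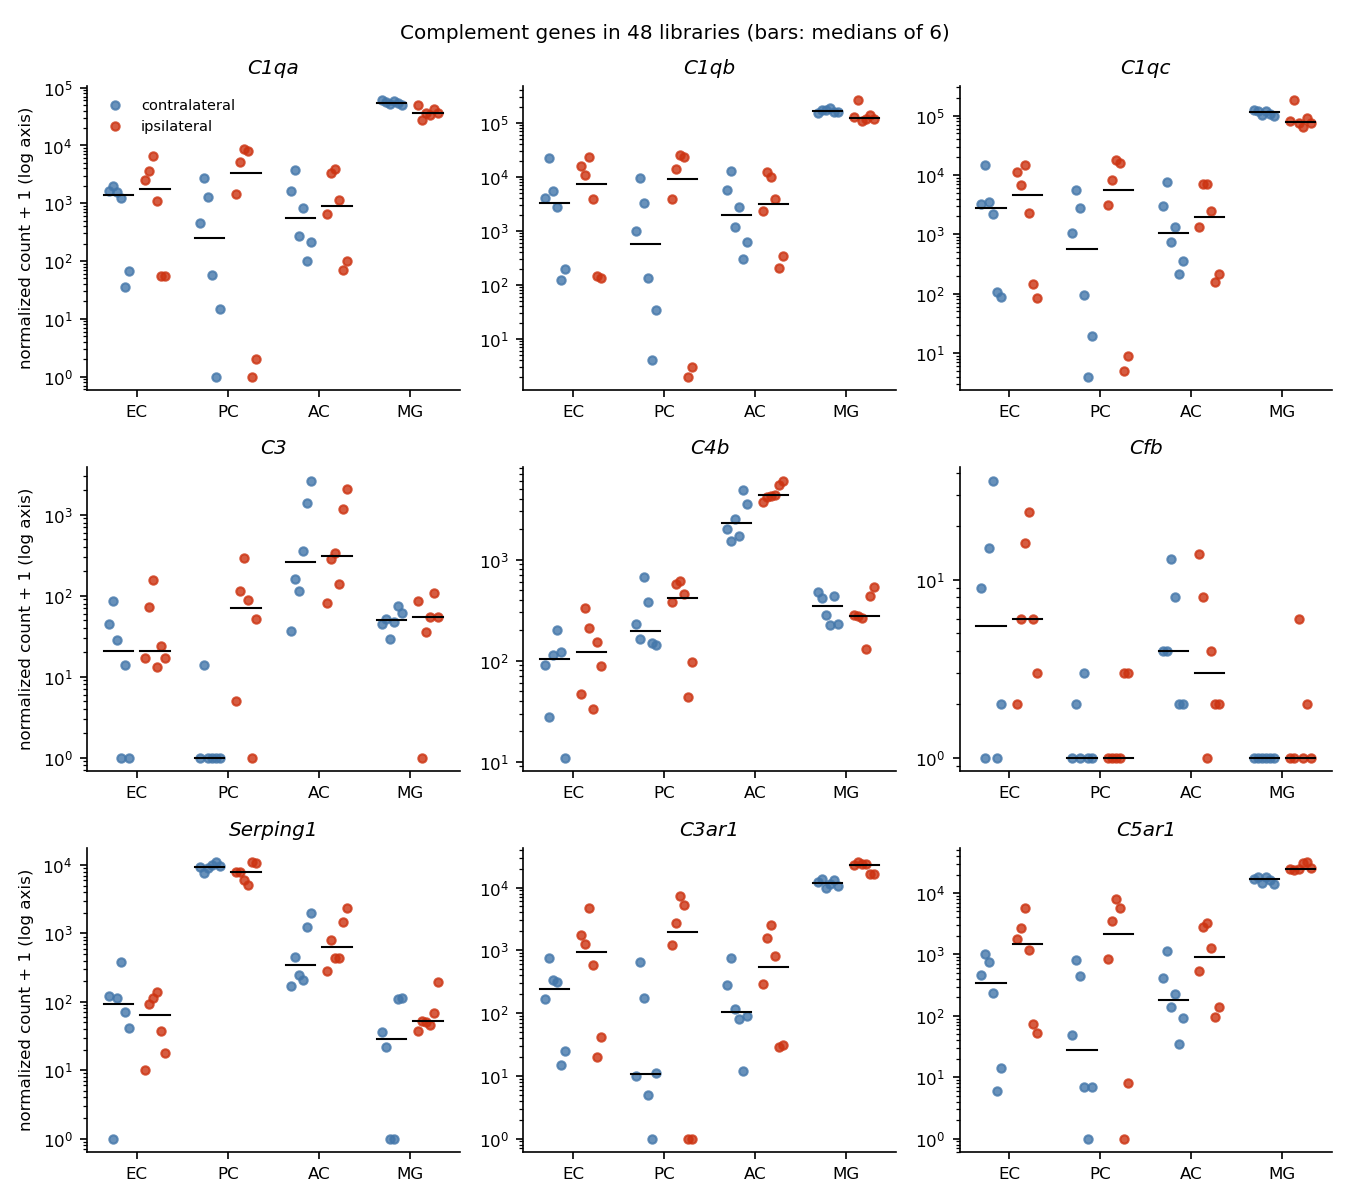
Normalized count plus 1 (log axis) of the 9 complement genes in each of the 48 libraries, by cell type (EC, PC, AC, MG) and hemisphere (blue contralateral, red ipsilateral); each point is a library, in replicate order from left to right, and bars are medians of 6. The C1q chains, *C3ar1* and *C5ar1* are highest in microglia, *C3* and *C4b* in astrocytes and *Serping1* in pericytes; *C1qa* in contralateral microglia lies between 49499 and 61579.

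Levels in the contralateral hemisphere were compared between cell types by limma on log2(normalized count + 1) in a fit of all 48 libraries. A difference was called at 1.5-fold or more with an adjusted p (Benjamini-Hochberg, over 15003 genes) not above 0.05. Of the 9 genes, 8 had the required mean of at least 10 normalized counts, and *Cfb* did not. Between MG and EC, 6 of 8 were called, where 41.6% of all genes were. Between MG and PC 7 of 8 were called (all genes 48%), and between MG and AC 7 of 8 (all genes 50.7%). Between PC and EC 2 of 8 were called (all genes 34.6%), between AC and EC 3 of 8 (all genes 49.1%), and between AC and PC 3 of 8 (all genes 45.4%).

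*C1qa* was higher in MG than in EC by 6.80 ± 1.76 (SE) on the log2 scale (adjusted p = 0.00137), than in AC by 6.63 ± 1.76 (adjusted p = 0.00134) and than in PC by 9.03 ± 1.76 (adjusted p = 2.74e-05). *C1qb* and *C1qc* were called higher in MG against each of the other types as well. Among EC, PC and AC no pair differed for any of the 3 chains by this rule, and the smallest adjusted p was 0.234, for *C1qb* between AC and PC, with a difference of 2.71 ± 1.84. The order of EC, PC and AC was thus not resolved by this test.

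That spread followed the replicate numbers. *C1qa* in contralateral EC was 1608, 2014, 1576, 1214, 35 and 65 normalized counts in replicates 1 to 6. In contralateral PC it was 447, 2750, 1292, 57, 0 and 14, and in ipsilateral PC 1428, 5163, 8676, 8044, 0 and 1. Replicates 5 and 6 were low in each of these groups, and in AC they were the lowest of the 6 in both hemispheres, at 100 and 211 in contralateral and 69 and 99 in ipsilateral libraries.

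The microglial markers moved with these values. Over the 12 libraries of a cell type, Pearson's r between log2 values of *C1qa* and of the sum of the 12 microglial markers was 0.981 in EC, 0.965 in PC and 0.993 in AC, given as a description of libraries that share mice and sorts. In EC replicates 1 to 4, *C1qa* was at 2.19 to 3.64% of the contralateral microglial mean and the markers at 1.80 to 6.85%. In EC replicates 5 and 6, *C1qa* was at 0.0632 to 0.117% and the markers at 0.292 to 0.307%. In PC replicates 5 and 6, ipsilateral *C1qa* was at 0 to 0.00266% and the markers were at 0.156 to 0.192%. In ipsilateral AC, *C1qa* was at 1.76 to 10.5% in replicates 1 to 4 beside markers at 1.82 to 8.03%, and at 0.184 to 0.263% in replicates 5 and 6 beside markers at 0.391 to 0.494%. None of the 12 markers was at 0 in all libraries of any group, and the part of microglial RNA in these values was not tested.

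**Figure D2:**
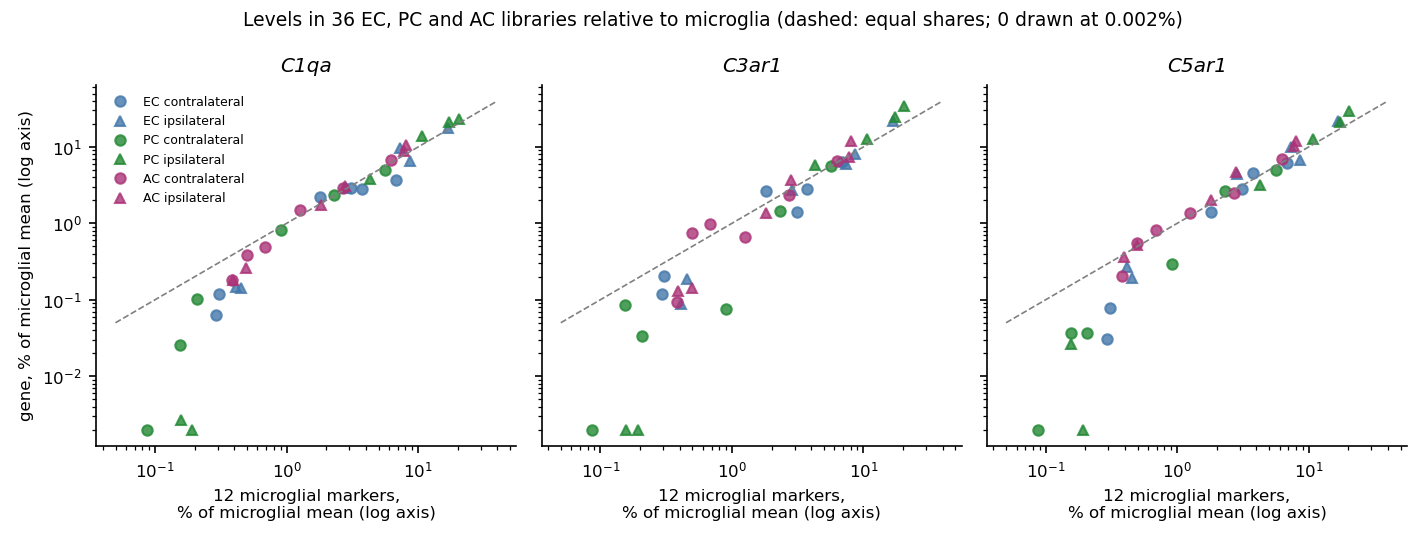
Level of *C1qa*, *C3ar1* and *C5ar1* (vertical, log axis) against the summed level of 12 microglial markers (horizontal, log axis), each as percent of the microglial mean of the same hemisphere, in the 36 EC, PC and AC libraries (circles contralateral, triangles ipsilateral). Points above about 1% lie near the dashed line of equal shares, and libraries with the least marker RNA, 0.0869% at the lowest, fall below it.

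In microglia the C1q chains were lower in the ipsilateral hemisphere in most pairs, and no chain met the rule for a regulated gene. A gene was called regulated, in a limma fit of the 12 libraries of a cell type, with an adjusted p not above 0.05, a change of 1.5-fold or more, and values above 10 throughout the 6 libraries of at least 1 hemisphere. *C1qa*, the A chain, went from 49499 to 61579 (median 54675) in contralateral MG to 27231 to 49498 (median 36288) in ipsilateral MG. It was lower in all 6 pairs of hemispheres and the ranges did not overlap, by 1 normalized count. The log2 change was -0.58 ± 0.18 (SE), just under 1.5-fold, with an adjusted p of 0.0551. Of all genes tested in MG, 6.27% were called lower and 4.29% higher.

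*C1qb* had a median of 124554.5 in ipsilateral MG with a range of 107931 to 266464, and *C1qc* a median of 77305 with a range of 65384 to 184049. Both were lower in 5 of 6 pairs, with log2 changes of -0.27 ± 0.26 (adjusted p = 0.519) and -0.33 ± 0.26 (adjusted p = 0.425). The exception in both was replicate 2, whose ipsilateral library held the highest values. Without that library, left out after its values were seen, the changes were -0.46 for *C1qb*, -0.54 for *C1qc* and -0.49 for *C1qa*, with adjusted p of 0.0539, 0.0223 and 0.0250, and none reached 1.5-fold. The sum of the 12 microglial markers was also lower in ipsilateral MG in all 6 pairs, with a ratio of means of 0.690, against 0.679 for *C1qa*.

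The chains kept a narrow ratio to each other in most libraries. In the 44 libraries with at least 30 normalized counts of *C1qa*, the level per kilobase of *C1qb* was a median of 3.00 times that of *C1qa*, and that of *C1qc* 1.11 times. The *C1qb* to *C1qa* ratio stood apart in 3 libraries, at 10.6 in contralateral EC replicate 2, 9.35 in ipsilateral MG replicate 2 and 6.12 in ipsilateral EC replicate 1. In the remaining 41 libraries the ratio ranged from 2.13 to 4.12 for *C1qb* and from 0.713 to 1.65 for *C1qc*. The 3 libraries had 13422 to 14051 genes above 0, in a series that ranged from 13420 to 20575. Mitochondrial genes made up 2.50 to 5.74% of their normalized counts, against 0.470 to 3.23% in the other 45. Their part in the ratios was not tested.

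**Figure D3:**
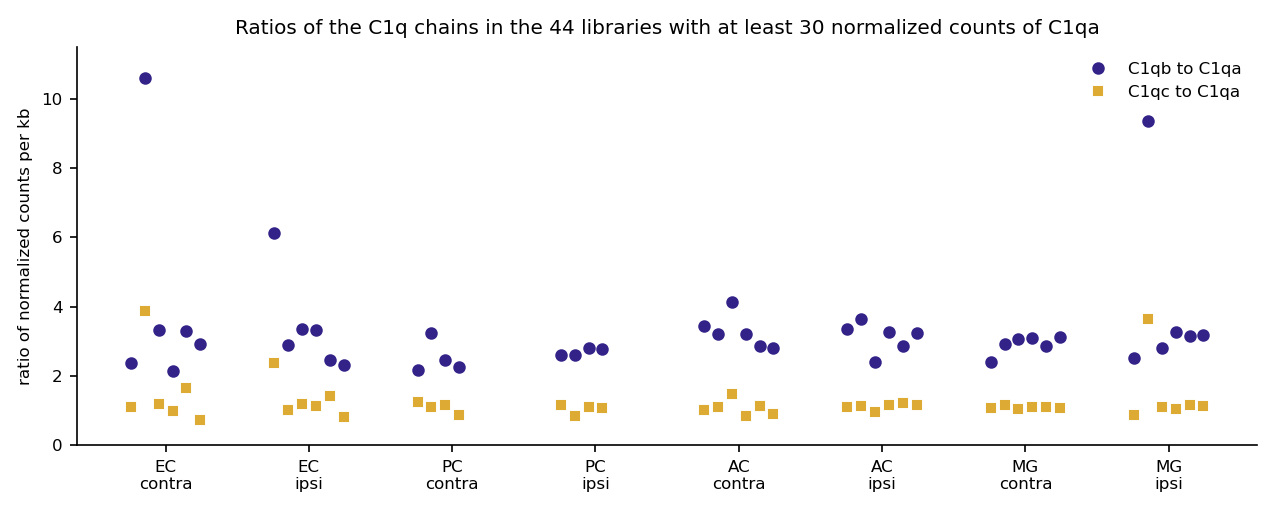
Ratio of the level per kilobase of *C1qb* to *C1qa* (circles) and of *C1qc* to *C1qa* (squares) in the 44 libraries with at least 30 normalized counts of *C1qa*, by cell type and hemisphere, in replicate order within each group. Circles lie between 2.13 and 4.12 except in 3 libraries, at 6.12, 9.35 and 10.6.

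*C4b* (ENSMUSG00000073418, chr17:34728380-34743882), the C4 protein cleaved by the classical pathway, was highest in astrocytes. Contralateral AC had 1529 to 4840 normalized counts with a median of 2276, and no library of another type exceeded 670. It was higher in AC than in EC by 5.24 ± 0.58 on the log2 scale (adjusted p = 2.37e-10) and than in PC by 3.34 ± 0.58 (adjusted p = 4.63e-06). MG minus AC was -2.91 ± 0.58 (adjusted p = 3.30e-05). Contralateral medians were 346.5 in MG, 196.5 in PC and 102 in EC. MG and PC exceeded EC by the rule (adjusted p = 0.000880 and 0.00777), while MG and PC were not called different (0.43 ± 0.58, adjusted p = 0.574). Reads that map to several places were left out by the authors, so reads shared with the near-identical paralog *C4a* may be missing from these values.

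In ipsilateral AC, *C4b* ranged from 3690 to 6001 normalized counts with a median of 4306.5. It was higher than in the contralateral library in all 6 pairs, by 0.19 to 1.44 on the log2 scale, although the 2 groups overlapped. The log2 change was 0.90 ± 0.26, with an unadjusted p of 0.00422 and an adjusted p of 0.263 by limma, so that it was not called. With the replicate number as a block, which fits pairs from the same pooled mice, the SE was 0.17 and the adjusted p 0.0297, and *C4b* was called. It was then 1 of 8 complement genes called in AC, where 1.25% of all genes were called higher with the block. Without the block 0 of 8 were called in AC, where 0.334% of all genes were called higher and 0.00655% lower. An unadjusted p under 0.05 by limma was found for 1 of 8, and for 1416 of all 15264 genes tested.

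Other values moved with *C4b* in AC. *Gfap*, the intermediate filament of astrocytes, ranged from 2213 to 17352 in contralateral and from 8805 to 28937 in ipsilateral AC. Monocyte, neutrophil and border macrophage markers were each higher in 6 of 6 pairs in AC, with sums of 107 to 1479, 36 to 1490 and 34 to 547 in contralateral libraries and 525 to 3380, 246 to 5502 and 99 to 1498 in ipsilateral ones. Of these lists *F10* and *Ltf* were at 0 in every contralateral AC library. Microglial markers were higher in 2 of 6 pairs, and *C4b* in MG itself did not exceed 529. Pericyte markers were higher in 0 of 6 pairs, with sums of 1538 to 6319 and 744 to 3622, smooth muscle markers in 1 of 6, with 336 to 1736 and 81 to 2427, and neuronal markers in 5 of 6, with 1071 to 5346 and 1232 to 7745. Oligodendrocyte markers were higher in 3 of 6 pairs, with sums of 49062 to 402282 and 85692 to 467708. The part of other cells in the change of *C4b* was not tested.

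*C3* (ENSMUSG00000024164, chr17:57203970-57228136), the central protein of the cascade, was low outside astrocytes. In contralateral AC it was 36, 162, 115, 358, 1394 and 2627 normalized counts in replicates 1 to 6, and in ipsilateral AC 80, 286, 335, 137, 1192 and 2111. Replicates 5 and 6 stood above the other 4 in both hemispheres, and hemispheres overlapped, with a log2 change of 0.26 ± 1.02 (adjusted p = 0.965). *C4b*, *Serping1* and *Gfap* were also higher in replicates 5 and 6 than in replicates 1 to 4 within each hemisphere of AC. The 12 microglial markers summed to 1956 to 3608 in AC replicates 5 and 6, and to 4986 to 45409 in replicates 1 to 4. Contralateral *C3* was called higher in AC than in EC (4.86 ± 1.20, adjusted p = 0.000688) and than in PC (7.65 ± 1.20, adjusted p = 8.35e-07), and higher in MG than in PC (4.997 ± 1.20, adjusted p = 0.000509). MG minus AC was -2.65 ± 1.20 and was not called (adjusted p = 0.0610). With replicates 1 to 4 alone, the count of the 8 genes called between AC and EC went from 3 to 1.

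Pericytes showed the largest fitted change of *C3*. It was listed at 0 in 5 of 6 contralateral PC libraries and at 13 in replicate 2, against 4, 115, 289, 88, 0 and 50 in ipsilateral replicates 1 to 6. The log2 change was 4.28 ± 1.36 with an unadjusted p of 0.00721 and an adjusted p of 0.148, and it moved from 2.28 with a pseudocount of 10 to 6.46 with 0.1, with 5 of 6 contralateral values at 0. In PC 0 of 8 complement genes were called, where 0.441% of all genes were called higher and 0.581% lower. An unadjusted p under 0.05 by limma was found for 1 of 8, and for 2098 of all 13597 genes tested. The microglial markers in PC had median sums of 4055.5 in contralateral and 37511 in ipsilateral libraries and were higher in 5 of 6 pairs. Neutrophil and monocyte markers were also higher in 5 of 6 pairs, with sums of 0 to 1659 and 1833 to 4384 in contralateral and 44 to 13946 and 1620 to 12610 in ipsilateral PC, and border macrophage markers in 4 of 6, with 165 to 501 and 121 to 4149. *Ly6g*, *Camp*, *Ms4a4c* and *F10* of these lists were at 0 in every contralateral PC library. Smooth muscle markers were lower in 6 of 6 pairs, with 305671 to 472420 and 140102 to 323604. Contralateral MG held 28 to 74 normalized counts of *C3* and ipsilateral MG 0 to 106, so that 2 of the 6 ipsilateral PC libraries were above every MG library. The part of other cells in this change was not tested.

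*Cfb* (ENSMUSG00000090231, chr17:34856374-34862518), factor B of the alternative pathway, was low in every cell type. It ranged from 0 to 35 normalized counts in EC, 0 to 2 in PC, 0 to 13 in AC and 0 to 5 in MG, and exceeded 10 in 4 of 12 EC libraries, 2 of 12 AC libraries and no library of PC or MG. It was above the floor of 3 reads of its own library in 3 of 6 contralateral and 4 of 6 ipsilateral EC libraries, in 3 of 6 of each in AC, and in no library of PC or MG. It was 0 in all 6 contralateral MG libraries, which allows up to 3 reads in each for counting error only. *Cfb* overlaps *Gm20547* and *Mir6972* on the same strand, and reads that overlap several genes were left out by the authors. Its mean was under 10 in every cell type, so it was not tested.

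*Serping1* (ENSMUSG00000023224, chr2:84765387-84775444), the C1 inhibitor, was highest in pericytes. Contralateral PC held 7539 to 11118 normalized counts with a median of 9385, contralateral AC 172 to 2007 with a median of 348.5, EC 0 to 376 with a median of 90.5 and MG 0 to 112 with a median of 28. Every PC library of either hemisphere, the lowest at 5091, was above every library of the other types. Fibroblast markers were also highest in PC, with sums of 3093 to 12234, against at most 1920 in the other types. The part of fibroblasts in the level of *Serping1* was not tested. The level in PC exceeded that in EC by 7.56 ± 0.98 on the log2 scale (adjusted p = 2.13e-08). AC exceeded EC by 3.22 ± 0.98 (adjusted p = 0.00546), while EC and MG were not called different (adjusted p = 0.152). Contralateral pericyte markers summed to 1538 to 6319 in AC and 103 to 1065 in EC. In contralateral AC replicates 5 and 6 they summed to 3152 to 6319, beside *Serping1* at 1238 to 2007. In replicates 1 to 4 they summed to 1538 to 2705, beside *Serping1* at 172 to 455. Between hemispheres of AC, these markers were higher in 0 of 6 pairs and *Serping1* in 6 of 6. The part of pericyte RNA in AC was not tested. In PC, where *Serping1* was highest, Pearson's r over 12 libraries with the microglial marker sum was -0.90, given as a description.

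Between hemispheres *Serping1* met the rule in no cell type. In ipsilateral PC it ranged from 5091 to 10925 with a median of 7825.5, and the log2 change was -0.28 ± 0.19 (adjusted p = 0.525). In AC it went from a median of 348.5 to 621 and was higher in 6 of 6 pairs, by 0.66 ± 0.66 with an adjusted p of 0.818, and 0.0672 with the block. In MG the change of 2.10 ± 1.15 (adjusted p = 0.247) rested on low values, since 2 contralateral libraries were listed at 0 and the ipsilateral ones ranged from 36 to 196.

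The receptors *C3ar1* and *C5ar1* rose in ipsilateral microglia. *C3ar1* (ENSMUSG00000040552, chr6:122847138-122856161), the receptor of the C3a fragment, had 9732 to 13500 normalized counts with a median of 11904 in contralateral MG and 16331 to 25658 with a median of 22930 in ipsilateral MG. All ipsilateral libraries were above all contralateral ones, and replicates 5 and 6 were the lowest ipsilateral ones, at 16331 and 16605. The log2 change was 0.85 ± 0.17 (SE, 6 against 6 libraries) with an adjusted p of 0.00591 by limma. The ratio of the means was 1.81, and the 6 pairs differed by 0.31 to 1.29 on the log2 scale.

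*C5ar1* (ENSMUSG00000049130, chr7:16246743-16259540), the receptor of the C5a fragment, had 13906 to 18396 normalized counts with a median of 16721.5 in contralateral MG and 23581 to 32200 with a median of 25074.5 in ipsilateral MG. Again the hemispheres did not overlap, and all 6 pairs rose, by 0.36 to 0.98. The log2 change was 0.71 ± 0.16 with an adjusted p of 0.0102, and the ratio of the means was 1.64. Without replicate 3 the adjusted p was 0.0503 and with replicates 1 to 4 alone 0.124. Both receptors together were the 2 of 8 complement genes called in MG, beside the 4.29% of all genes called higher there. In the fit of 48 libraries, whose spread comes from all cell types, neither was called (adjusted p = 0.846 for *C3ar1* and 0.866 for *C5ar1*). The direction rests on the column names, since with the cell types of the sample titles the changes were -5.70 and -5.68 (adjusted p = 0.0421 and 0.0261). The plot of the pairs of hemispheres shows both rises beside the values of *C1qa*.

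**Figure D4:**
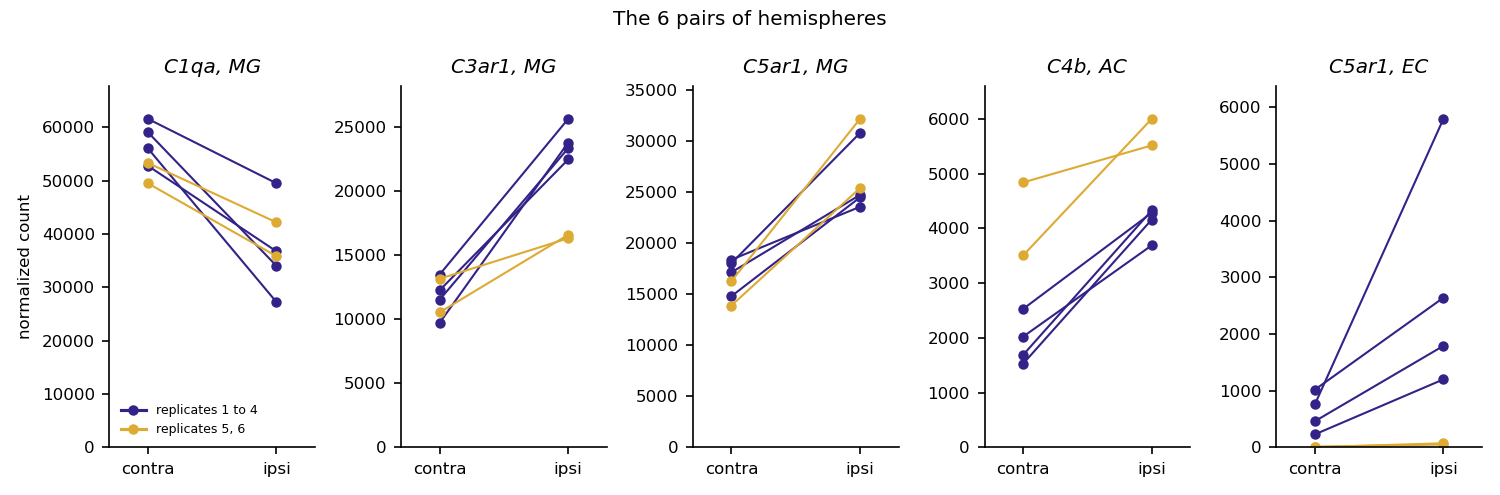
Normalized counts of *C1qa*, *C3ar1* and *C5ar1* in microglia, *C4b* in astrocytes and *C5ar1* in endothelial cells (vertical axes start at 0); each line joins the contralateral and ipsilateral libraries of a replicate, with replicates 5 and 6 in yellow. In all 6 microglial pairs the ipsilateral library is higher for *C3ar1* and *C5ar1* and lower for *C1qa*, and in all 6 astrocyte pairs it is higher for *C4b*.

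Markers of other myeloid cells differed between the same libraries. The sum of 8 monocyte markers was 385 to 1673 in contralateral and 2136 to 5606 in ipsilateral MG and was higher in 6 of 6 pairs, and that of 6 border macrophage markers was 367 to 2091 and 1178 to 4557, also higher in 6 of 6. Single members differed within these 2 lists. *Fn1* of the monocyte list was 223 to 959 and 1280 to 3687, higher in 6 of 6 pairs. Of the border macrophage list, *Pf4* was higher in 6 of 6 pairs (41 to 377 and 143 to 2858) and *Mrc1* in 3 of 6 (89 to 497 and 159 to 549). The 10 neutrophil markers summed to 6423 to 8044 and 4388 to 19569 and were higher in 1 of 6 pairs, but members of the list moved in opposite directions. *Csf3r*, the most abundant of them in contralateral MG among those given here, was lower in 6 of 6 pairs, at 5562 to 7882 and 718 to 3457. The other neutrophil markers given were higher in 6 of 6 pairs, namely *S100a8* (20 to 534 in contralateral and 571 to 9831 in ipsilateral MG), *S100a9* (26 to 251 and 543 to 5263) and *Cxcr2* (15 to 79 and 40 to 263), except *Ly6g*, a defining marker, which was at 0 in all contralateral libraries, at 0 to 6 in ipsilateral ones and higher in 4 of 6. The hemispheres did not overlap for *S100a8* and *S100a9*, and ipsilateral replicate 2 held the highest *S100a8*, at 9831 against 571 to 2445 in the other 5. Without that library the changes of the receptors were 0.79 for *C3ar1* and 0.74 for *C5ar1*, with adjusted p of 0.00230 and 0.00167. *Ccr2*, a defining marker of monocytes, was 31 to 110 in contralateral and 57 to 251 in ipsilateral MG and higher in 5 of 6 pairs. The part of these cells in the change of the receptors was not tested.

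Microglia had the highest level of both receptors in the contralateral hemisphere. *C3ar1* was higher in MG than in EC by 6.48 ± 1.69 on the log2 scale (adjusted p = 0.00151) and *C5ar1* by 6.89 ± 1.62 (adjusted p = 0.000461). Both were also called higher than in PC and AC, and no pair of EC, PC and AC was called for either. With the replicate block *C5ar1* was called higher in AC than in PC (adjusted p = 0.0488), in a comparison where 47.3% of all genes were called with the block. Per kilobase the contralateral microglial median was 6506 for *C5ar1* and 2765 for *C3ar1*, both below each of the C1q chains.

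In EC, PC and AC no change of a receptor was called without the block, and values spread widely. The ipsilateral library was the higher one in 6 of 6 pairs of both receptors in EC, in 4 of 6 (*C3ar1*) and 5 of 6 (*C5ar1*) in PC, and in 5 of 6 and 6 of 6 in AC. *C5ar1* in contralateral EC was 462, 1019, 759, 230, 5 and 13 normalized counts in replicates 1 to 6, and in ipsilateral EC 1792, 2642, 5798, 1201, 73 and 51. It was higher in all 6 pairs, and the groups overlapped, because replicates 5 and 6 were low in both hemispheres. The log2 change of 2.36 ± 1.45 had an adjusted p of 0.560 by limma. With the replicate block the SE was 0.33 and the adjusted p 0.0273, and *C5ar1* was 1 of 8 called, where 0.378% of all genes were called higher. Without the block 0 of 8 were called in EC, where 0.362% of all genes were called higher and 0.128% lower. An unadjusted p under 0.05 by limma was found for 0 of 8, and for 1581 of all 13242 genes tested.

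Beside this change in EC, the microglial markers were higher in 4 of 6 pairs, with median sums of 17814.5 and 25502.5. The neutrophil and border macrophage markers were higher in 6 of 6 pairs, with sums of 36 to 1726 and 43 to 769 in contralateral and 101 to 10465 and 192 to 2437 in ipsilateral EC. The monocyte markers were higher in 2 of 6 pairs, with sums of 20479 to 34573 in contralateral and 14490 to 36384 in ipsilateral EC. Every EC library thus exceeded every MG library, where the same list summed to 385 to 1673 in contralateral and 2136 to 5606 in ipsilateral MG. Values of single monocyte markers in EC are not given here, so these EC sums cannot be read as an amount of monocyte RNA. *Cxcr2*, *Camp* and *Ngp* were at 0 in every contralateral EC library and *Camp* in every ipsilateral one. *C5ar1* was at 0.190 to 21.6% of its ipsilateral microglial mean in ipsilateral EC, and the microglial markers were at 0.412 to 16.8%. The part of other cells was not tested.

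*C3ar1* in EC had medians of 241 and 923 in contralateral and ipsilateral libraries and was higher in 6 of 6 pairs, with a log2 change of 1.66 ± 1.33 (adjusted p = 0.683). In PC it went from a median of 9.5 to 1974 and *C5ar1* from 27 to 2148.5, with changes of 3.503 ± 2.46 and 3.37 ± 2.32 and adjusted p of 0.524 and 0.516. In ipsilateral PC replicates 5 and 6, *C3ar1* was at 0 in both and *C5ar1* at 0 and 7. In AC the changes were 1.44 ± 1.20 for *C3ar1* and 1.81 ± 0.96 for *C5ar1*, with adjusted p of 0.774 and 0.609, and *C5ar1* was higher in 6 of 6 pairs. The C1q chains in EC, PC and AC had changes of 0.14 to 1.91 with SE of 1.07 to 2.68 and adjusted p of 0.747 to 0.985.

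**Figure D5:**
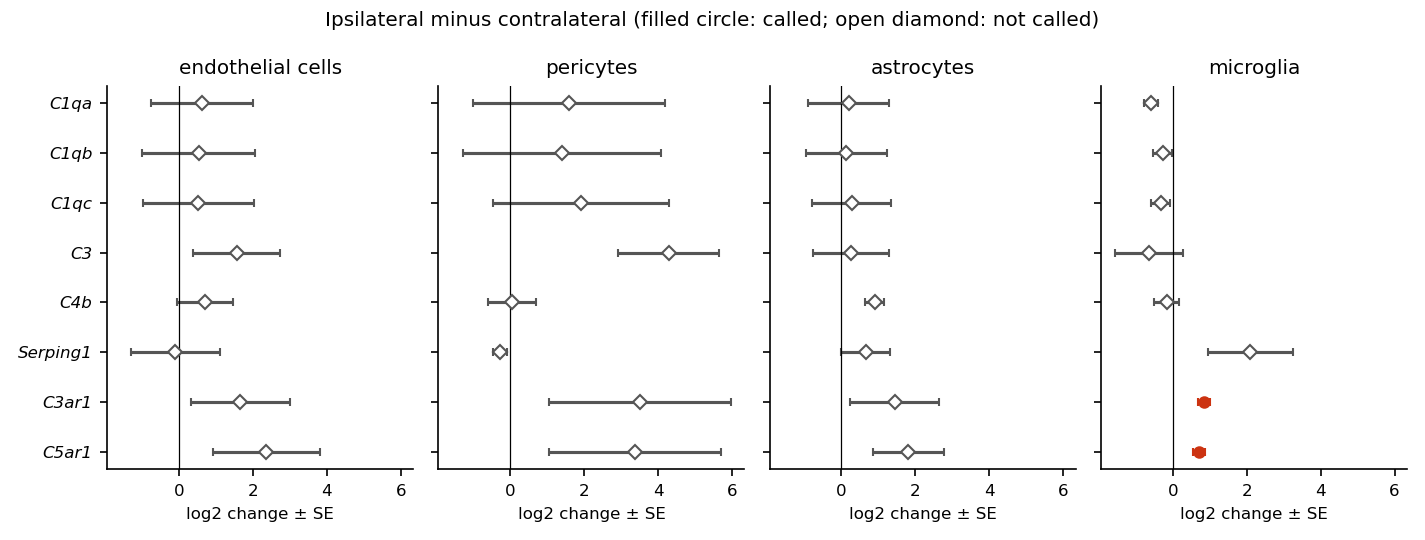
Log2 change (ipsilateral minus contralateral, with its SE) of 8 complement genes in each cell type, from limma on log2(normalized count + 1) with 6 libraries per hemisphere; filled circles were called regulated and open diamonds were not. *C3ar1* (0.85 ± 0.17) and *C5ar1* (0.71 ± 0.16) in microglia are the 2 called, and the error bars of the C1q chains and receptors are widest in pericytes.

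Whether a change differed between cell types was tested in the fit of 48 libraries. In 0 of 6 pairs of cell types was any of the 8 genes called, and 2 of the 48 differences had an unadjusted p under 0.05, both of *C3*. By that unadjusted threshold, 817 (AC and EC) to 1898 (MG and PC) of all 15003 genes passed in a pair. Of all genes, 0.0267% were called between PC and EC, 0.0600% between AC and EC, 0.273% between MG and EC, 0.00667% between AC and PC, 0.727% between MG and PC and 0.293% between MG and AC. The smallest p was for *C3* between MG and PC, a difference of -4.93 ± 1.70 (unadjusted p = 0.00576, adjusted p = 0.185). Blocking on the replicate number gave an adjusted p of 0.0457, and this 1 of 8 genes was called, where 1.69% of all genes were. The rise of the receptors in MG was thus not shown to differ from their changes in the other types.

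The median log2 change over the 8 genes was 0.67 in EC, 1.75 in PC, 0.47 in AC and -0.22 in MG. Over all genes tested it was -0.03, -0.04, -0.06 and -0.18. These medians are a description, because the 8 genes did not vary separately. In EC, PC and AC the C1q chains and both receptors moved with the sum of the microglial markers (Pearson's r of 0.909 to 0.994). In PC the SE of their changes was 2.32 to 2.68. The other complement genes were described from a list of 48, of which 37 were in the table. Of these, 21 were tested in EC, 21 in PC, 26 in AC and 20 in MG, and 0, 0, 0 and 4 were called, with a median log2 change of 0.09, 0.42, 0.26 and -0.08. Of all genes tested, 0.491%, 1.02%, 0.341% and 10.6% were called in either direction. In MG, 3 were higher and 1 was lower. *C5ar2*, the other receptor of C5a, went from 896 to 1524 normalized counts (median 1262) to 193 to 721 (median 480.5), was lower in 6 of 6 pairs and did not overlap, by -1.55 ± 0.30 (adjusted p = 0.00451). It thus moved in the opposite direction to *C5ar1* in the same libraries.

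*Itgax*, a subunit of complement receptor 4, went from 20 to 149 (median 80) to 105 to 663 (median 331.5) in MG, by 2.10 ± 0.49 (adjusted p = 0.0133). *Cd93*, a surface protein that was first described as a C1q receptor and is abundant on endothelium, went from 11 to 99 (median 43.5) to 97 to 436 (median 226), by 2.35 ± 0.53 (adjusted p = 0.0114), with 3751 to 10066 in EC. *C1qbp*, a mostly mitochondrial protein that can bind C1q, went from 1057 to 1503 (median 1334.5) to 1880 to 5445 (median 2061), by 0.93 ± 0.23 (adjusted p = 0.0205). All 3 were higher in 6 of 6 pairs.

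The genes whose pattern over the 48 libraries was most like that of each complement gene were found by Pearson's r of log2 values among 15003 genes, as a description in which cell type, mice and depth are shared. For *C1qa* they were *C1qb* (r = 0.995), *C1qc* (0.992) and *Ctss* (0.988), and for *C1qb* they were *C1qc* (0.995), *C1qa* (0.995) and *Ctss* (0.987). *C1qc* was most like *C1qb* (0.995), *Fcgr3* (0.994) and *C1qa* (0.992). *C3ar1* was most like *C5ar1* (0.982), *Fcrls* (0.979) and *Mpeg1* (0.977), and *C5ar1* most like *Fcrls* (0.986), *Coro1a* (0.983) and *Rac2* (0.983). *Serping1* was most like *Flot2* (0.914), *Notch3* (0.912) and *Rbm24* (0.896). The likeness was lower for *C4b*, with *Sorl1* (0.879), *Tspan7* (0.872) and *Grina* (0.871), and for *C3*, with *Hdc* (0.801), *Ttc9* (0.792) and *Slc14a1* (0.783).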

How the data were processed

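RNA of sorted cells was sequenced after amplification of about 250 pg per library with the SMART-Seq HT kit. Per the labels and the methods of the study, reads were trimmed with Trimmomatic 0.38, aligned to GRCm38 (mm10) with STAR 2.6.1d, counted on genes with featureCounts 1.6.3 without multi-mapped or multi-overlapping reads, and normalized with DESeq2 1.18.1. The deposited values are the normalized counts after rounding by the authors, treated here as a score with no count model. Gene lengths came from GENCODE M21 exons.

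Hemispheres were compared by limma 3.58.1 in R 4.3.3, with a trended prior variance, on log2(normalized count + 1), two-sided, in a separate fit of 12 libraries per cell type. Genes needed a mean of 10 or more. Levels and differences of changes used 1 fit of 48 libraries. Fold changes on this scale understate those of low genes. The test was tested on simulated data. Where it changed a call, the fit with the replicate number as a block is given beside it. Both hemispheres of a number come from the same pooled mice. Their deviations from the group means correlated on average by 0.227 in EC, 0.227 in PC, 0.380 in AC and 0.135 in MG. The lowest single correlations were 0.0105, -0.0731, 0.0188 and -0.0281. For other numbers the averages were -0.04, -0.04, -0.08 and -0.03. These largely follow from the former averages, since deviations from a group mean cancel out. P-values measure the spread between these pools. Depth was estimated from the spacing of low values, and floors cover counting error only.

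The 9 genes, the list of 48 further complement genes and the marker lists were chosen with earlier results of these data known. Named genes are the 9 in every group, further complement genes called in a cell type, the 3 most alike genes for each of the 9, and markers beside a result; *Gfap* was chosen after its values were seen. Not every result on the further genes is reported here. Markers of neurons and fibroblasts summed to at most 7745 and 12234 in any library. Those of lymphocytes summed to at most 71, but only 5 of the 8 were measured, without *Cd3e*, *Cd3d* and *Cd8a*. Alternatives were pseudocounts of 0.1 and 10, no filter, a minimum mean of 50, the block, a joint fit, rescaling, no expression rule, no minimum change, each replicate left out, replicates 1 to 4 alone and the cell types of the titles. Of the further genes, 11 were not analysed here. Summaries were made in pandas 2.3.3 and numpy 2.4.6 (Python 3.11.15), and plots in matplotlib 3.10.9.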

Additional observations from a re-analysis of the deposited data

Results flagged for a closer look

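In 13 of 71 groups of 6 libraries, over the 9 genes and 8 groups, the highest library was set apart from the others. The rule was a ratio above the 95% critical value of Dixon's test, which chance exceeds in about 1 of 20 groups of normally distributed values. The ratio was taken on normalized counts without logs, and the groups of different genes share libraries. The number of groups set apart therefore cannot be compared with that rate. No lowest library was set apart.

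Of these, 7 were replicate 2 of the contralateral hemisphere. *C1qb* was 22331 normalized counts in EC (the other 5 libraries 121 to 5459) and 9311 in PC (3 to 3304), and *C1qc* was 14491 in EC (86 to 3432). *C3ar1* was 654 in PC (0 to 170) and 766 in AC (11 to 275), *C5ar1* was 1145 in AC (34 to 407), and *C3* was 13 in PC, where the other 5 were at 0. The microglial markers in the same replicate were at 6.85% of the microglial mean in EC, 5.64% in PC and 6.25% in AC, the highest of the 6 contralateral libraries in each. Their part in these values was not tested.

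In ipsilateral MG replicate 2, *C1qb* was 266464 (107931 to 139381 in the others) and *C1qc* 184049 (65384 to 91199), while *C1qa* was the lowest of its group, at 27231. *C3ar1* was 4701 in ipsilateral EC replicate 3 (19 to 1752). *Serping1* was 376 in contralateral EC replicate 4 (0 to 119) and 196 in ipsilateral MG replicate 6 (36 to 67). *Cfb* was 5 in ipsilateral MG replicate 3 (0 to 1), under the floor of 3 reads in that library, 7.12 normalized counts.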

How the results depend on the processing

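The number of the 8 complement genes called between hemispheres was 0 in EC and AC and 1 in each with the replicate block. In PC it was 0, and in MG 2, with 1 to 2 when a replicate was left out (1 without replicate 3), 1 with replicates 1 to 4 alone and 0 in the joint fit of 48 libraries. With the cell types of the sample titles it was 6 in PC and 6 in MG. Between AC and EC, 3 genes differed in contralateral level, and 1 did with replicates 1 to 4 alone. For the difference of changes between MG and PC the count was 0, and 1 with the block. The causes of these shifts were not tested, except that the titles exchange pericytes and microglia and the joint fit takes its spread from all cell types.

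In MG the joint fit gave adjusted p of 0.846 for *C3ar1* and 0.866 for *C5ar1*, with changes of 0.85 and 0.71. *C5ar1* changed by 0.60 with replicates 1 to 4 alone and by 0.70 without replicate 3, both not called. *C5ar1* in EC (2.36) and *C4b* in AC (0.90) were called only with the block. With the titles the changes in MG turned to -5.70 for *C3ar1* and -5.68 for *C5ar1*, both called. The other changes that turned sign were not called as reported or where they turned: *Serping1* in EC, -0.10, was 0.42 with a pseudocount of 0.1, 0.38 with replicates 1 to 4 alone and -1.43 to 0.59 with a replicate left out. With a replicate left out, *C4b* in PC ranged from -0.30 to 0.42, lowest without replicate 2. In AC *C1qa* ranged from -0.53 to 0.50, *C1qb* from -0.45 to 0.43 and *C1qc* from -0.31 to 0.57, each lowest without replicate 3. *C3* in MG ranged from -0.96 to 0.37, highest without replicate 2, and was 0.35 without the ipsilateral library of replicate 2.

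Counts over all genes moved by over 1.5 times. EC had 65 regulated genes, 36 without the filter, 11 with replicates 1 to 4 alone, 10 to 84 with a replicate left out, 235 in the joint fit and 395 without the 2 libraries whose C1q ratios stood apart, a setting added after seeing the data that called 0 of the 8 genes. PC had 139, and 84, 31, 11 to 112 and 288 under the first 4 of these, 226 with the block and 6219 with the titles. AC had 52, and 34 with a pseudocount of 0.1, 32 with a mean of at least 50, 242 with the block, 12 to 61 with a replicate left out and 89 in the joint fit. MG had 1404, and 787 with replicates 1 to 4 alone, 557 to 1909 with a replicate left out, 826 in the joint fit and 6179 with the titles. Depth limits *Cfb*, above the floor of 3 reads in no library of PC or MG, and *C3* in contralateral PC, above it in 1 of 6.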
